A study of Macaca mulatta with 24 samples.

Results

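GRM7, GRIK1, GRIA4, GABRB1 and GABRE, which encode receptors for the transmitters glutamate and GABA, and CAMK2A, which encodes a kinase of the postsynaptic density, were followed across 4 areas of the macaque neocortex. In the motor cortex 5 of the 6 genes lay below their prefrontal level and GABRE lay above it. The genes were chosen by how far the primary motor cortex, or the motor areas together, differed from prefrontal area 46 in these same arrays. For GABRB1 and GABRE the values behind the choice are not recorded, and the same was taken to hold. Differences from area 46 are therefore given as a description and support nothing. All probe sets that name one of these genes alone were used, 9 in all, and all 9 passed the filter on low intensity. They represent 6 of the 14132 genes that a probe set names alone. The names are those of the platform annotation. It gives accessions for 3 of the 9 probe sets, the single ones of GRIK1 and GABRE and 1 of GABRB1, and RefSeq's gene table lists none of these under the gene, nor any of the 4502 accessions of probe sets named alone, so the names could not be checked this way.

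RNA was taken from adolescent rhesus monkeys (Macaca mulatta), from prefrontal area 46 (A46), from premotor cortex in a ventral (PMv) and a dorsal (PMd) part, and from the primary motor area (M1) where the forelimb is represented. The 3 animals were group-caged and untreated, animals 1 and 2 being males of 2.7 and 2.6 years and animal 3 a female of 2.7 years. Both hemispheres were sampled, which gave 24 one-colour Affymetrix Rhesus arrays, 6 per area, each from 1 dissected piece. The series asks which transcripts differ among motor and prefrontal areas. With 1 female, sex and animal 3 cannot be told apart.

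Fast excitation in the cortex runs through ionotropic glutamate receptors, which are ion channels assembled from subunits of the AMPA, kainate and NMDA families. Metabotropic glutamate receptors act through G proteins and tune release and excitability. GABA-A receptors are chloride channels built from subunits of several classes and carry fast inhibition. Calcium that enters through glutamate receptors activates CaMKII, a kinase abundant at excitatory synapses, whose alpha subunit is the product of CAMK2A.

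Levels are log2 array intensities, with the hemispheres of each animal averaged, and errors are the SD over 3 animals. Neighbours in the order of area means differ beyond their spread where the mean difference exceeds its SD and all 3 animals share its sign. The order comes from the same means, so this is a description and no test. Every step that met this rule held A46 or M1, areas on which the genes were chosen. Differences are log2 differences with limma's standard error (SE), and levels of different probe sets are not set against each other. A gene was called where limma's adjusted p, corrected by the Benjamini-Hochberg method over every probe set tested, was under 0.05. The pieces held all cortical layers, so fewer cells of a type and less RNA per cell cannot be told apart. Median intensity was 48.0 to 51.7 per array, and pairs of arrays had a Pearson's r of 0.977 to 0.997 over all probe sets. Neuronal markers were present on every array: the summed intensity of the 6 named pan-neuronal markers had a median of 20400 in A46 and 20300 in M1, and in M1 against A46, STMN2 was called higher and the other 5 were not called. The 3'-to-5' log2 ratio of the actin control, a sign of RNA integrity, was 1.08 ± 0.11 in A46 and 0.94 ± 0.05 in M1, and that of the GAPDH control 0.93 ± 0.06 and 1.03 ± 0.06 (SD, n = 3 animals).

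GRM7 encodes mGluR7, a group III metabotropic receptor found at presynaptic active zones, where it lowers transmitter release. Its level in A46 was 6.9, 6.53 and 6.68 in animals 1, 2 and 3 (6.71 ± 0.19, SD, n = 3). In M1 it was 5.73, 5.81 and 6.37 (5.97 ± 0.35). Every animal was lower in M1 than in A46, but the 6 arrays of each area overlapped, since the highest M1 array, at 6.57, came from animal 3 and lay above the lowest A46 array, at 6.49. PMv had a mean of 6.29 ± 0.48 and PMd one of 6.28 ± 0.35, between the other areas. The order was A46, PMv, PMd and M1, and among neighbours only PMd and M1 differed beyond the spread of their differences (0.31 ± 0.04, SD, n = 3). M1 was 1.66-fold below A46 (log2 difference -0.73, SE 0.15), by 1.18 in animal 1, 0.72 in animal 2 and 0.31 in animal 3.

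GRIK1 encodes GluK1, a kainate receptor subunit. Animals 1, 2 and 3 had levels of 7.25, 7.46 and 7.12 in A46 (7.28 ± 0.17, SD, n = 3) and of 6.54, 6.84 and 6.5 in M1 (6.63 ± 0.19). The 6 arrays of A46, from 7.1 to 7.57, did not overlap the 6 of M1, from 6.4 to 7.01. PMd (7.02 ± 0.35) and PMv (6.94 ± 0.32) were intermediate. In the order A46, PMd, PMv and M1, the step from A46 to PMd (0.26 ± 0.18) and that from PMv to M1 (0.31 ± 0.3) exceeded their spread, and that between the premotor areas did not. M1 was 1.57-fold below A46 (-0.65, SE 0.12). The difference was much alike in the 3 animals, at -0.71, -0.62 and -0.63.

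GRIA4 encodes GluA4, an AMPA receptor subunit with fast kinetics that is prominent in parvalbumin interneurons. Its brighter probe set read 9.01, 8.79 and 8.71 in A46 (8.84 ± 0.15, SD, n = 3), and PMd (8.81 ± 0.1) and PMv (8.76 ± 0.05) lay close to that. M1 read 8.71, 8.33 and 8.37 (8.47 ± 0.21). The low level was thus in M1, while both premotor areas stayed near A46, and of the neighbours in the order A46, PMd, PMv and M1 only PMv and M1 differed beyond their spread (0.29 ± 0.21). The arrays of A46 and M1 overlapped, because the lowest A46 array, at 8.71, lay just under the highest M1 array, at 8.72. M1 was 1.29-fold below A46 (-0.37, SE 0.08). A second, dimmer GRIA4 probe set had a mean of 6.12 ± 0.04 in A46, and of 5.98 ± 0.21, 6.0 ± 0.11 and 5.98 ± 0.08 in PMv, PMd and M1. Its A46 arrays (6.07 to 6.16) touched its M1 arrays (5.78 to 6.07) without overlapping. Its M1 minus A46 was smaller, at -0.15 (SE 0.09), with -0.14, -0.27 and -0.03 in animals 1, 2 and 3. It showed no step between premotor cortex and M1, so the GRIA4 probe sets disagreed about the premotor level as well as the size of the difference. The second probe set was dim, since only 57.0% of probe sets had a lower mean.

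CAMK2A encodes the alpha subunit of CaMKII, typical of excitatory neurons of the forebrain. Its levels in A46 were 9.17, 8.81 and 9.38 (9.12 ± 0.29, SD, n = 3). In M1 they were 8.39, 8.26 and 9.12 (8.59 ± 0.47), in PMd 8.48, 8.18 and 9.47 (8.71 ± 0.68), and in PMv 8.24, 8.08 and 9.4 (8.58 ± 0.72). Animal 3 was the highest in every area, and its M1 level lay above the A46 level of animal 2, so the areas overlapped. No neighbouring pair in the order A46, PMd, M1 and PMv differed beyond its spread. M1 was 1.44-fold below A46 (-0.53, SE 0.14), by 0.78, 0.55 and 0.26 in animals 1, 2 and 3. PMv lay as far below A46 as M1 did (-0.54, SE 0.14), with differences of -0.92 and -0.72 in animals 1 and 2 and 0.02 in animal 3.

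GABRB1 encodes the beta-1 subunit of the GABA-A receptor. On its brightest probe set A46 read 9.72, 9.5 and 9.64 (9.62 ± 0.11, SD, n = 3) and M1 9.04, 8.96 and 9.42 (9.14 ± 0.25). The arrays of A46 (9.45 to 9.75) and M1 (8.96 to 9.45) touched without overlapping. PMv (9.41 ± 0.3) and PMd (9.4 ± 0.25) were between them, and only PMd and M1 differed beyond the spread among neighbours (0.26 ± 0.1). M1 was 1.39-fold below A46 (-0.48, SE 0.09). The other GABRB1 probe sets did not repeat this evenly: the dimmest had a difference of -0.31 (SE 0.1), with -0.55, -0.39 and 0.01 in animals 1, 2 and 3, and the one of middle brightness had -0.05 (SE 0.08), with levels of 7.41 in A46 and 7.37 in M1. On both of these the arrays of A46 and M1 overlapped.

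GABRE encodes the epsilon subunit of the GABA-A receptor, known from the hypothalamus and brain stem more than from cortex. Its A46 levels were 5.65, 5.88 and 5.86 (5.8 ± 0.13, SD, n = 3) and its M1 levels 6.04, 6.59 and 6.0 (6.21 ± 0.33). PMv (6.02 ± 0.15) and PMd (6.06 ± 0.08) were intermediate, and no neighbours in the order M1, PMd, PMv and A46 differed beyond their spread. The arrays of A46 and M1 overlapped, and animal 2 was the highest in M1, with arrays at 6.79 and 6.4. M1 was 1.33-fold above A46 (0.41, SE 0.11), by 0.39, 0.71 and 0.14. These are dim signals: the A46 mean lay only a little above the intensity filter at 5.63, and only 57.1% of probe sets had a lower mean.

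**Figure D1:**
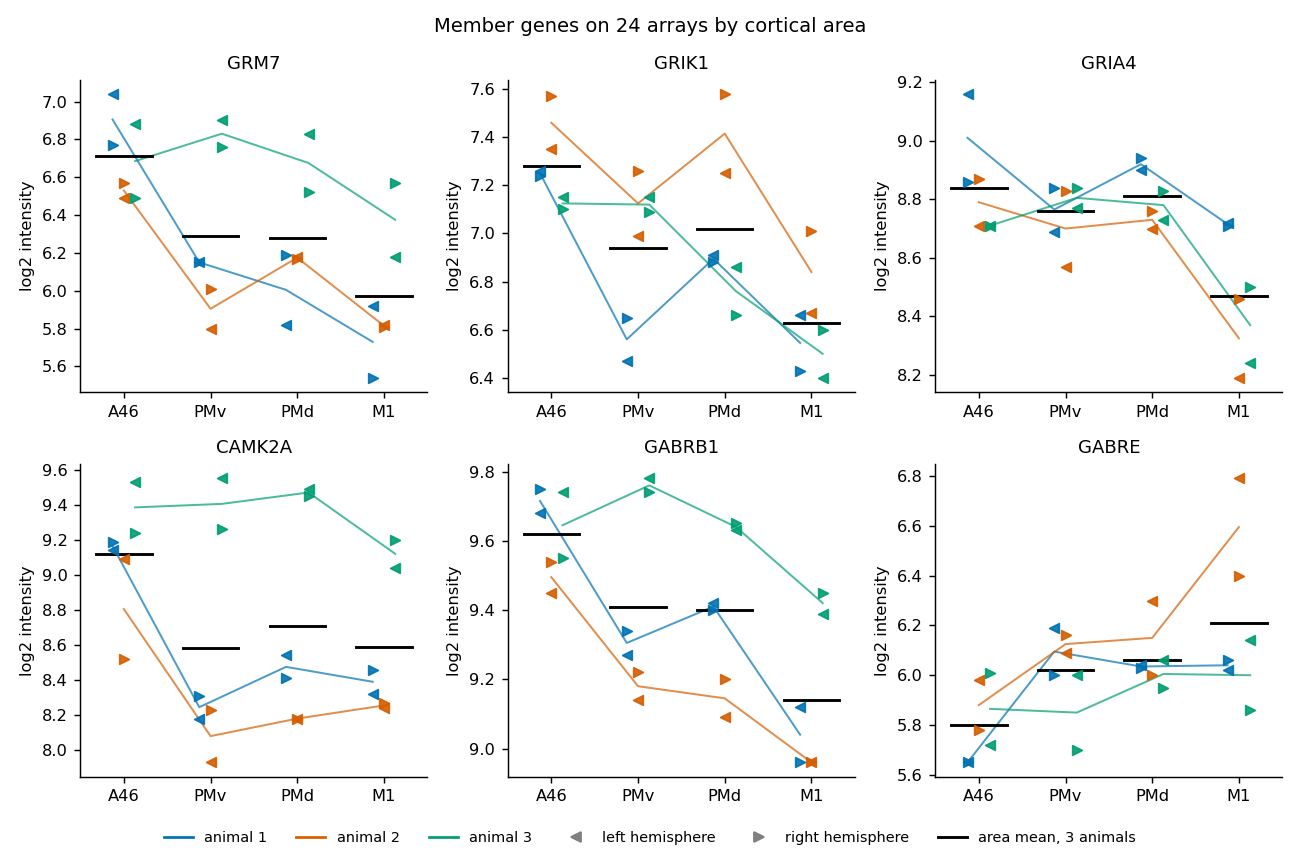
Log2 intensity of the representative probe set of each gene on the 24 arrays by area. Triangles are arrays (pointing left or right for the hemisphere), coloured lines join the animals' means, and black bars are means of 3 animals. GRIK1 shows the A46 arrays wholly above those of M1, CAMK2A shows animal 3 above the others throughout, and GABRE runs the other way, from 5.8 in A46 to 6.21 in M1. Each panel has its own axis, which does not start at 0.

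**Figure D2:**
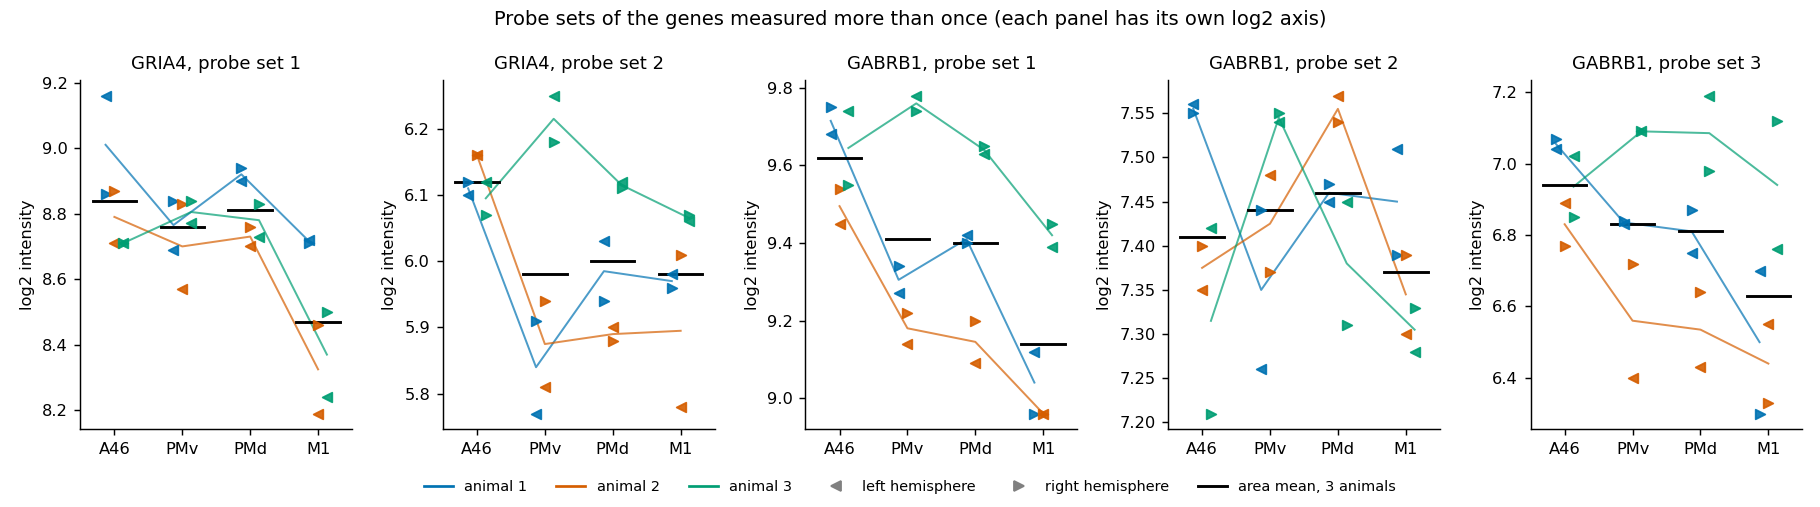
Log2 intensity by area for every probe set of the genes measured more than once, with probe sets numbered by falling brightness. GRIA4 probe set 2 has premotor and M1 means at the same level (5.98 to 6.0), and GABRB1 probe set 2 is nearly flat (7.37 to 7.46).

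In M1 minus A46, limma called 6 of the 6 genes (5 lower and 1 higher), where it called 14.7% of the 10039 tested genes in either direction, 5.9% lower and 8.78% higher. Nothing can be read from that count, because this contrast chose the genes. The count also takes only the representative probe set of each gene. In the same contrast limma did not call the second GRIA4 probe set (-0.15, adjusted p = 0.317). Nor did it call the GABRB1 probe sets of middle brightness (-0.05, 0.797) and of lowest brightness (-0.31, 0.053). With all motor areas averaged against A46 it called 5 of 6 genes (11.0% of tested genes), and GRIA4 was the one not called, with a difference of -0.16. The median difference of all tested genes in M1 minus A46 was 0.0. The count was 2 (GRIK1 and GRIA4) without animal 1, 0 without animal 2 (limma, with 5 genes at an unadjusted p under 0.05) and 6 without animal 3. The share of all tested genes called in these fits is not given here, so the counts cannot be read as a trait of these genes. The sign of each difference was the same in every fit that left out an animal, which was fixed, since all 3 animals shared it.

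Differences between the premotor areas and A46 share the A46 pieces with the contrast that chose the genes. In PMd minus A46 limma called 0 of 6 genes against 2.51% of tested genes, with 4 at an unadjusted p under 0.05, and in PMv minus A46 also 0 of 6 against 1.54%, with 4 at that level. In PMv, animal 3 often lay apart from animals 1 and 2. In this animal PMv lay above A46 for GRM7 (0.15), GRIA4 (0.09), CAMK2A (0.02) and GABRB1 (0.12) and level with it for GRIK1 (0.0), whereas in animals 1 and 2 all of these differences were negative, from -0.92 to -0.09. In PMd of animal 3, CAMK2A was 0.09 and GRIA4 0.07 above A46, GRM7 was 0.01 below it and GABRB1 was level with it (0.0). GRIK1 lay 0.37 below A46 there, much as in animal 1 (-0.36), and animal 2 was the one near A46 (-0.04). M1 lay below A46 for all 5 of these genes also in animal 3, by 0.22 to 0.63. No test of a difference between animals was made.

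**Figure D3:**
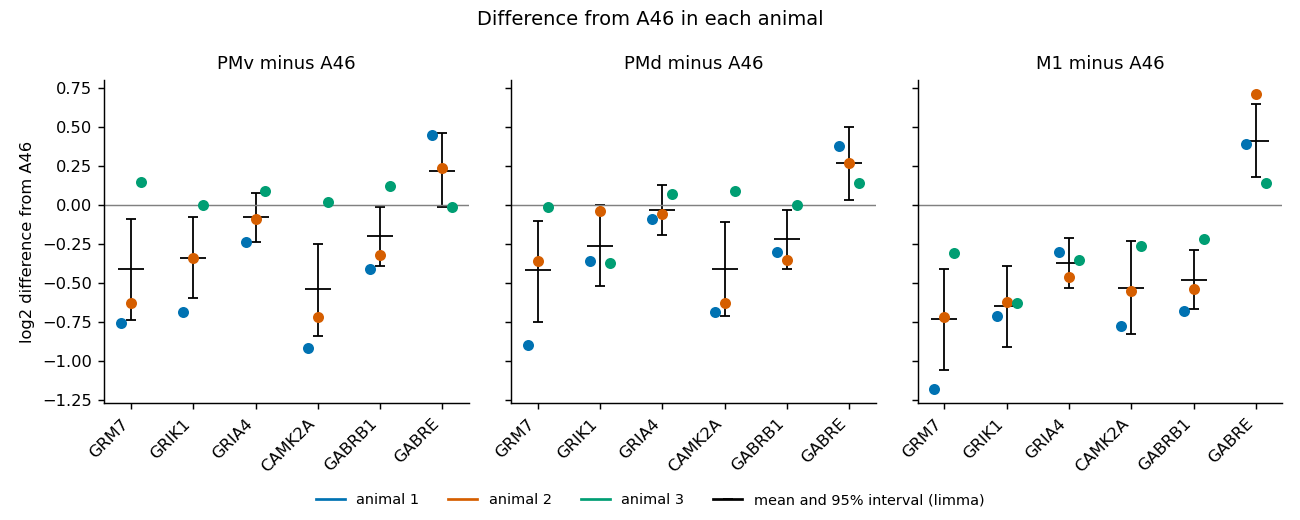
Log2 difference from A46 in PMv, PMd and M1 for each gene. Points are animals and bars the mean with limma's 95% interval over 3 animals. In PMv the points of animal 3 lie near or above 0 for all genes, and in M1 all points of the first 5 genes lie below 0.

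M1 was set against the mean of both premotor areas. This reuses the M1 pieces on which the genes were chosen, and the premotor pieces too where the motor areas together were used, so neither its calls nor their count support anything about the genes. Limma called 1 of 6 genes and 2.71% of tested genes. The called gene was GRIA4, 1.24-fold lower in M1 (-0.32, SE 0.07, limma adjusted p = 0.0269), by 0.13, 0.39 and 0.43 in animals 1, 2 and 3. This call was lost without animal 2 (adjusted p = 0.833), with the left hemisphere alone (0.212), with each array centred on its median (0.123) and with both GRIA4 probe sets averaged (-0.16, 0.311). GRIK1 (-0.35, SE 0.1, adjusted p = 0.126), GRM7 (-0.32, SE 0.13, 0.326) and GABRB1 (-0.27, SE 0.08, 0.111) were not called, although all 3 animals had negative differences for each and the unadjusted p was under 0.05. GABRE (0.17, SE 0.09, adjusted p = 0.513) was not called either. CAMK2A differed by -0.05 (SE 0.12, adjusted p = 0.912), with a 95% interval from -0.31 to 0.2, and animals 1 and 2 were higher in M1 and animal 3 lower. Without animal 3 its sign turned (0.08). Without animal 3 the count of called genes was 2.

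PMd was compared with PMv, a difference that the choice did not use: M1 minus A46 holds neither area, and the mean of the motor areas weights both equally. For GABRB1 and GABRE this rests on the assumption that they were chosen in the same way. No difference between the premotor areas was detected for any of these genes: limma called 0 of 6, with 0 at an unadjusted p under 0.05, and 0.0199% of tested genes (2 genes) were called. The differences were -0.01 for GRM7, 0.09 for GRIK1, 0.05 for GRIA4, 0.13 for CAMK2A, -0.02 for GABRB1 and 0.04 for GABRE, with adjusted p from 0.885 to 0.993. CAMK2A was the one gene higher in PMd in 3 of 3 animals, by 0.24, 0.1 and 0.07. The 95% intervals still allowed sizable differences, from -0.16 to 0.43 for CAMK2A, from -0.34 to 0.31 for GRM7 and from -0.11 to 0.21 for GRIA4.

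The left and right hemispheres were compared over 12 pairs of pieces. No side difference was called for any of the genes (limma, 0 of 6, 0 at an unadjusted p under 0.05), and 0.0% of tested genes were called. The 12 pairs came from 3 animals and were taken as independent, so these p-values rest on more units than animals. GABRE had the largest value (left minus right 0.11, SE 0.05, adjusted p = 0.654), with the left piece higher in 9 of 12 pairs, and GRIA4 followed (-0.09, SE 0.04, adjusted p = 0.664), with the left piece higher in 3 of 12. GRM7 (0.04, SE 0.07), CAMK2A (0.04, SE 0.06), GRIK1 (-0.08, SE 0.05) and GABRB1 (0.0, SE 0.03) were nearer to 0, GRIK1 only slightly. Each of these genes had both signs among the animals, and so did GRIA4 (0.03, -0.18 and -0.11 in animals 1, 2 and 3). Whether the area differences changed with the hemisphere was tested by an interaction, in which 0 of 6 genes and 0.0% of tested genes were called (limma, adjusted p = 0.999 for each gene, 0 at an unadjusted p under 0.05). As a description, M1 minus A46 in the left and the right hemisphere was -0.72 and -0.34 for CAMK2A, -0.48 and -0.26 for GRIA4, 0.53 and 0.3 for GABRE, -0.83 and -0.64 for GRM7, -0.68 and -0.62 for GRIK1, and -0.47 and -0.49 for GABRB1.

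On their representative probe sets, the genes differed in how far their variation lay between areas or between animals. The genes were chosen by area differences in these same arrays, so the area shares are a description and support nothing. For CAMK2A the animal accounted for 68.1% of the variance over the 24 arrays and the area for 17.5%. Its mean over the 4 areas was 8.57, 8.33 and 9.35 in animals 1, 2 and 3. For GRIA4 the area accounted for 51.0% and the animal for 21.0%, and for GRIK1 for 47.8% and 27.1%. The second GRIA4 probe set had the opposite order, with 22.2% for the area and 33.2% for the animal. GABRB1 split nearly evenly (41.8% and 43.2%), with animal 3 again highest (9.61 against 9.37 and 9.2), as it was for GRM7 (6.64 against 6.19 and 6.11). The other GABRB1 probe sets gave 12.1% for the area and 7.84% for the animal at middle brightness, and 19.7% and 46.2% on the dimmest. GRIK1 was highest in animal 2 (7.21 against 6.81 and 6.88) and GABRE also (6.19 against 5.96 and 5.93). On the representative probe sets, the 2 hemispheres of the same animal and area differed little for GABRB1 (3.02% of its variance) and more for GABRE (20.0%). The other GABRB1 probe sets had 26.4% at middle brightness and 19.3% on the dimmest, so the low share held on its brightest probe set alone.

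After each animal's mean was removed, the 12 animal-by-area means of the 5 genes lower in M1 ran together, with Pearson's r from 0.56 (GRIA4 with CAMK2A) to 0.93 (GRM7 with GABRB1). GABRE ran against all of them (r from -0.82 to -0.69). These correlations are a description over 12 means that share arrays and animals, and the choice of the genes fixes much of them. Among the other 10038 tested genes, the pattern most like that of GRM7 was shown by IGSF3 (r = 0.969), CACNA1I (0.969) and MADD (0.966). PPM1F (0.98), CAND2 (0.973) and TRAF5 (0.966) were most like GRIK1. TYRO3 (0.953), CLIC6 (0.941) and ANKLE2 (0.939) were most like GRIA4. HSP90AA1 (0.987), TSPAN7 (0.976) and YWHAZ (0.975) were most like CAMK2A. COQ8A (0.973), COX8A (0.969) and CELF5 (0.968) were most like GABRB1. TAL2 (0.959), S1PR5 (0.951) and FBXL7 (0.95) were most like GABRE.

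The other subunits of these receptor families and of CaMKII were examined as lists. Beside the genes above the families hold 45 genes, of which 19 were named alone by a probe set, 6 of these lay below the intensity filter and 13 were tested. In M1 minus A46, 1 of the 13 was higher, 2 were lower and 10 were not called, with a median difference of -0.05. Over all tested genes 8.78% were higher and 5.9% lower. CAMK2G, the gamma subunit of CaMKII, rose in M1 (0.54, SE 0.07, limma adjusted p = 0.000165), by 0.5, 0.58 and 0.54 in animals 1, 2 and 3, and all 3 of its probe sets were called. Its level climbed from 10.42 in A46 through 10.55 in PMv and 10.72 in PMd to 10.96 in M1. CAMK2D, the delta subunit, fell (-0.46, SE 0.09, adjusted p = 0.00445), with a level of 9.89 in A46 and of 9.69, 9.59 and 9.44 in PMv, PMd and M1, and all 3 of its probe sets were called. CAMK2B, the beta subunit and with CAMK2A a main neuronal form, was not called (-0.05, SE 0.05, adjusted p = 0.603). The CaMKII subunits therefore had differences of both signs in the same pieces.

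Among glutamate receptor genes other than GRM7, GRIK1 and GRIA4, 6 were tested and 1 was called, near the 14.7% of all tested genes. GRIA1, another AMPA subunit, fell in M1 (-0.25, SE 0.07, limma adjusted p = 0.027), by 0.35, 0.32 and 0.09, but the call was lost without animal 1 (0.199) and without animal 2 (0.494). GRIN1, the subunit that every NMDA receptor needs, was not called (-0.42, SE 0.17, adjusted p = 0.124), with -0.79, -0.5 and 0.03 in animals 1, 2 and 3. Without animal 3 it passed (-0.65, 0.00065), and with the motor areas together against A46 it was called (-0.48, SE 0.13, adjusted p = 0.0409). GRIK2 (-0.03), GRIN2C (-0.05), GRIN3B (0.05) and GRID1 (0.05) were near 0 and not called. Of the metabotropic receptors GRM7 was the one gene named alone by a probe set, so its family could not be described further.

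Of 17 other GABA-A subunit genes, 9 were named alone, 5 of these lay below the filter and 4 were tested. Limma called 0 of the 4 in M1 minus A46. GABRA2, the alpha-2 subunit, had the largest difference (-0.38, SE 0.12, adjusted p = 0.0523; -0.61, -0.46 and -0.07 by animal), was the one with an unadjusted p under 0.05, and passed without animal 3 (-0.54, 0.000279). With the motor areas together it was called (-0.37, SE 0.1, limma adjusted p = 0.0316). In that comparison 1 of the 13 family genes was higher and 3 were lower, where 11.0% of tested genes were called. GABRA3 (-0.06), GABRA4 (-0.07) and GABRR2 (0.0) were near 0. Scaffold and auxiliary genes of these receptors, together with the CaMKII inhibitors, had 23 of 41 members tested, of which 2 were lower in M1, 0 higher and 21 not called (median -0.08), which is no larger a share than the 14.7% of all tested genes. CAMK2N1, an inhibitor protein of CaMKII, fell by 0.4, 0.41 and 0.37 in animals 1, 2 and 3 (-0.39, SE 0.05, limma adjusted p = 0.00023), and just missed the threshold without animal 2 (0.0505). NPTX2, a secreted pentraxin that clusters AMPA receptors, fell also (-0.57, SE 0.08, adjusted p = 0.000742), and did not pass without animal 2 (0.0876).

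In M1 minus premotor limma called 2.71% of all tested genes. The families other than the 6 genes had 1 call among 13, CAMK2G (0.32, SE 0.06, limma adjusted p = 0.0117), which did not pass without animal 1 (0.0669) or animal 2 (0.497). The scaffold and auxiliary list had 1 call among 23, the AMPA receptor auxiliary subunit CNIH2 (-0.22, SE 0.05, adjusted p = 0.049), which did not pass with any animal left out. In PMd minus PMv limma called 0 of the 13 family genes, with 1 at an unadjusted p under 0.05. Of all tested genes 0.0199% were called there, and 5.96% were at that unadjusted level.

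**Figure D4:**
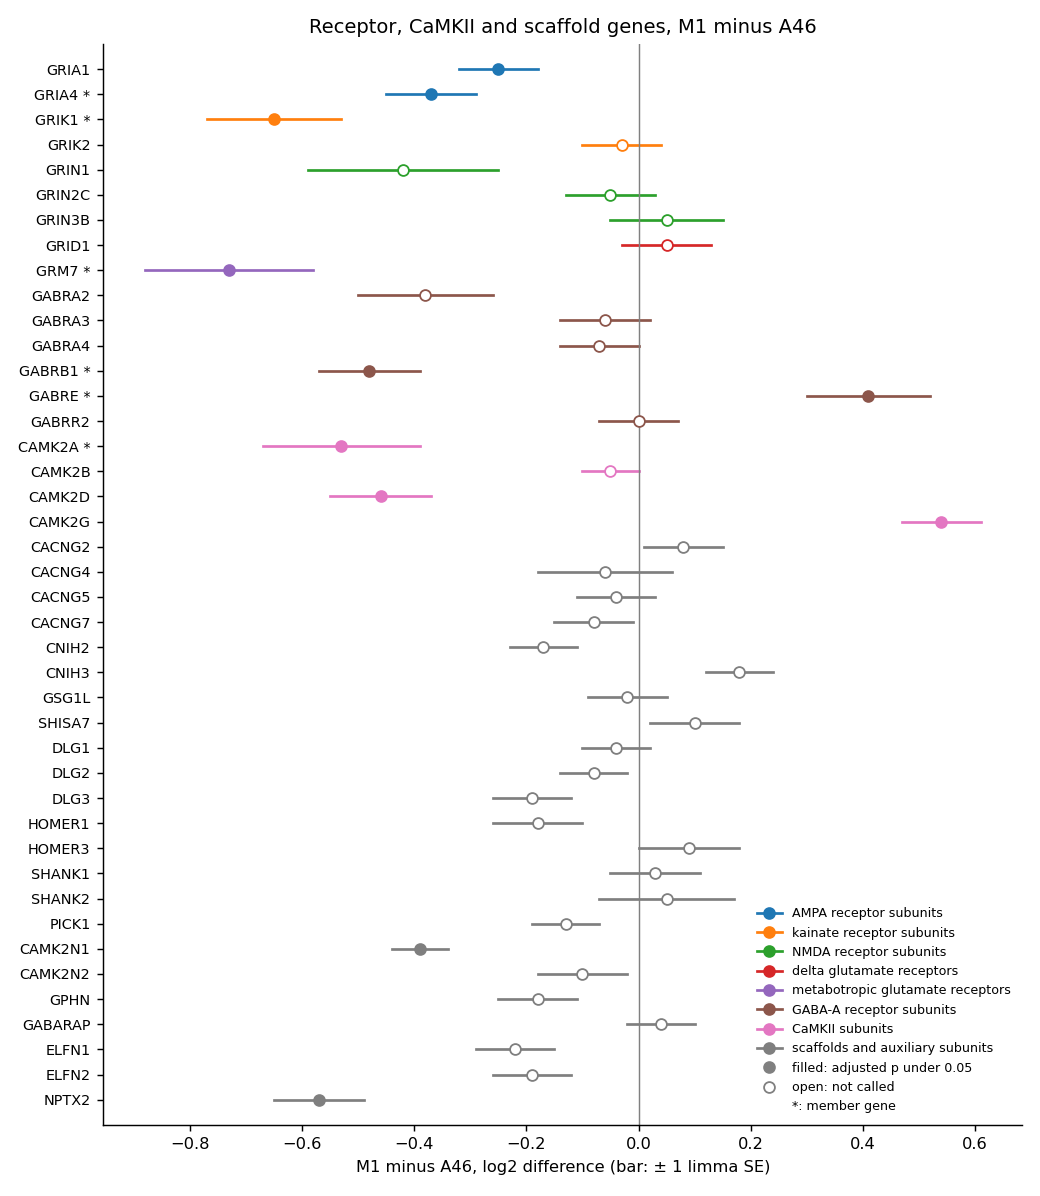
Log2 difference M1 minus A46 for every tested gene of the receptor, CaMKII and scaffold lists, with bars of 1 limma SE; filled points have an adjusted p under 0.05 and asterisks mark the 6 genes chosen by this contrast. CAMK2G (0.54) and GABRE (0.41) lie to the right, and most of the other genes lie near 0 or to its left.

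Some markers of other cell types, most of all those of oligodendrocytes, differed between M1 and A46. Of 11 oligodendrocyte markers 4 were named and tested, and 3 of these (MBP, SOX10 and UGT8) were higher in M1 than in A46. The remaining one, CNP, was not called (-0.08), and the median difference over the 4 was 1.21. The summed intensity of these 4 markers on the 6 arrays was 8890 to 12300 in A46 and 16600 to 22400 in M1, without overlap, and it was intermediate in PMv (median 15100) and PMd (15000). The part of this in the differences of the receptor genes was not tested. The 5 tested interneuron markers held PVALB and GAD2 as higher in M1 and VIP as lower, and the 4 tested excitatory neuron markers TBR1 as higher and NEUROD6 as lower. Of 6 astrocyte markers 1 was higher, of 6 microglia markers 2, of 3 oligodendrocyte precursor markers 2, and of the 4 endothelial and the 4 meningeal or choroid plexus markers 0 were called (limma). Over all tested genes 8.78% were called higher and 5.9% lower. Expressed relative to the mean of the pan-neuronal markers on the same arrays, M1 minus A46 was -0.75 for GRM7, -0.67 for GRIK1, -0.39 for GRIA4, -0.54 for CAMK2A, -0.49 for GABRB1 and 0.4 for GABRE, within 0.02 of the differences without it. In PMd minus PMv the same scaling lowered the values of all 6 genes, and turned the signs of GRIK1 (-0.03), GRIA4 (-0.07) and GABRE (-0.08).

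**Figure D5:**
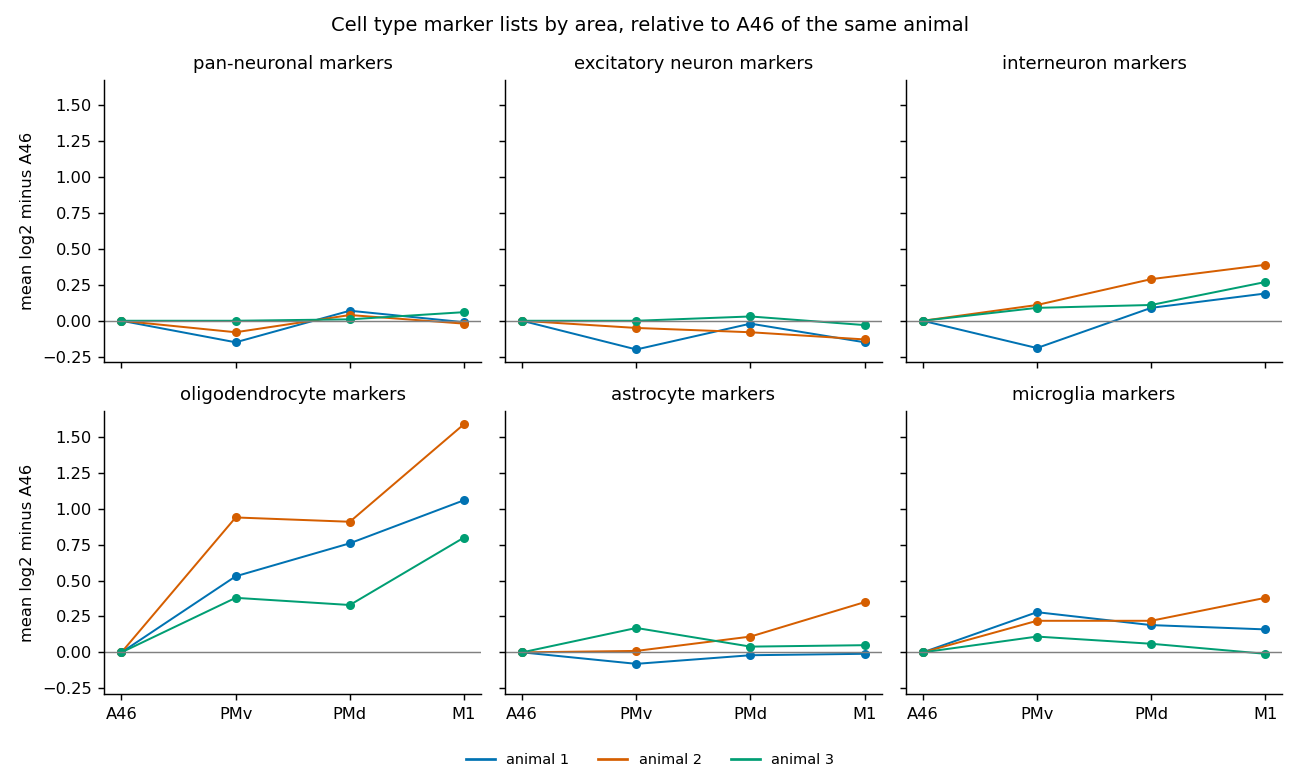
Mean log2 level of the tested markers of 6 cell types in each area, minus the A46 level of the same animal, with a line per animal. The pan-neuronal means of all 3 animals stay near 0, while the oligodendrocyte means in M1 are higher than in A46 in all 3 animals.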

How the data were processed

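Each one-colour array held total RNA of 1 piece, whose title gave the area, side and animal. The authors deposited linear intensities per probe set, computed by RMA, a robust summary of the probes over arrays, per the submitters' processing notes, which name no version. RMA brings arrays to a common distribution, so a shift of all transcripts together cannot be seen. The genome build is not given in the sources used here, and no coordinates are printed. Arrays have no read depth, and the 3 animals limit the precision.

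Intensities below 1 were set to 1 and log2 was taken. Of 52865 probe sets 158 controls were removed, leaving 24956 that name 1 gene, 361 that name several and 27390 that name none, by GEO's platform annotation. The filter kept the 26354 probe sets whose mean log2 value reached the median over probe sets, 5.63 (intensity 49.4). A gene was represented by its probe set with the highest mean. Hemispheres were averaged, and limma 3.58.1 (R 4.3.3) was fitted to the 12 means with area and animal as terms (6 residual and 6.98 prior degrees of freedom), after a check on simulated data. Left minus right was fitted on 24 arrays, blocked by animal and area. Tests were two-sided.

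The animal pairs the areas: deviations from area means correlated at 0.207 to 0.85 within animals (18 pairs) and at -0.561 to 0.0652 between them (36 pairs). The deviations of the 3 animals in an area cancel, so the values between animals largely follow from those within and add nothing separate. The genes, lists and tests were chosen with earlier results of these data known. The 6 genes were named throughout, with up to 4 called genes each way from the families, up to 3 from the scaffold list and the 3 most alike for each gene. GRIN1, GABRA2, CAMK2B and other uncalled family genes and CNIH2 were named after their values were seen. Alternatives covered the filter, the log offset (16), centring, the animal term, hemispheres, probe set choice and leaving out each animal.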

Additional observations from a re-analysis of the deposited data

Results flagged for a closer look

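In 2 of the 24 area groups of 6 arrays (6 genes in 4 areas), 1 array stood apart from the other 5 by a gap exceeding 0.625 of the group's range; about 1.2 of 24 groups would do so by chance. GRIA4 in the left A46 of animal 1 had a log2 intensity of 9.16, with the next array at 8.87 and the lowest at 8.71 (gap 0.652 of the range). With the right hemisphere alone, which leaves out that array, M1 minus A46 was -0.26 for GRIA4. GABRE in the left PMd of animal 2 had 6.3, with the next at 6.06 and the lowest at 5.95 (0.699).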

How the results depend on the processing

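M1 minus A46 kept its sign for each of the 6 genes under every alternative run. Much of this was fixed, since this contrast chose the genes and all 3 animals shared the sign for each. The count of calls ranged from 0 to 6 when 1 animal was left out. It was 3 with the stricter intensity filter, which only 3 of the genes pass. In the fit with no replicate block, which ignores that the areas are paired within animals, it was 0 (5 genes at an unadjusted p under 0.05). In M1 minus premotor, where 1 gene was called, the count was 3 with 24 arrays and duplicateCorrelation, 0 with centred arrays (3 at an unadjusted p under 0.05), 0 with no replicate block (1), 0 with the left hemisphere alone (3), 0 with probe sets averaged (4), and 0 to 2 with an animal left out. The other family genes had 3 calls in M1 minus A46, 1 with no replicate block, 1 with the left hemisphere alone and 2 to 5 with an animal left out; in PMd minus PMv they had 0 to 1. The share of all tested genes called in each alternative fit is not given here, so these changes in count cannot be read as particular to these genes. Their causes were not tested.

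Signs that turned belong to differences that were not called. With 1 animal left out, PMd minus PMv ranged from -0.15 to 0.06 for GRM7, from -0.03 to 0.31 for GRIK1, from -0.08 to 0.04 for GABRB1 and from -0.02 to 0.09 for GABRE. Left minus right ranged from -0.13 to 0.03 for GRIK1 and from -0.03 to 0.03 for GABRB1, and M1 minus premotor from -0.14 to 0.08 for CAMK2A. GRM7 in PMd minus PMv became 6e-05 with centred arrays, GABRB1 in left minus right 0.01 with probe sets averaged, and CAMK2A in M1 minus premotor 0.0048 with the right hemisphere alone. Relative to the pan-neuronal marker mean, with no test, PMd minus PMv was -0.13 for GRM7, -0.03 for GRIK1, -0.07 for GRIA4, 0.02 for CAMK2A, -0.13 for GABRB1 and -0.08 for GABRE. Among the representative probe sets that of GABRE lay closest to the filter (mean log2 6.024), and the second GRIA4 probe set lay slightly closer (6.018).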
